A study of Mus musculus with 19 samples.

Results

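Ion channel genes of the potassium, calcium and sodium families were examined in liver DNA of mice lacking Mat1a, the gene for the liver enzyme that makes S-adenosylmethionine (SAMe), the methyl donor of DNA methylation. The genes were chosen by symbol alone: every protein-coding gene whose symbol begins with Kcn, Cacna, Cacnb, Cacng or Scn, which gave 137 of 21887 coding genes on the nuclear chromosomes, with 1 further symbol left out by the rule. A CpG site was given to a gene when it lay inside it or within 2 kb of either end. The set is broader than its usual name of voltage-gated channels, because 92 of the 137 belong to voltage-gated classes and 45 do not (inward rectifier, two-pore-domain and calcium- or sodium-activated potassium channels, the epithelial sodium channel ENaC, and the splicing protein gene Scnm1).

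The animals were 6 Mat1a KO mice given placebo, 5 Mat1a KO mice given SAMe and 8 Mat1a WT mice with no treatment, all 10 months old, with treatment lasting 8 weeks according to the series title. Reduced-representation bisulfite sequencing read methylation in liver DNA fragments cut by MspI and TaqαI. WT mice had no placebo, so genotype and the placebo or SAMe procedure cannot be told apart in either comparison with WT. Strain, sex and the design of the Mat1a allele are not given in the sources used here, and whole liver mixes hepatocytes with other cells.

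The values are the authors' own group comparisons: a methylation difference in percentage points with its q-value for each listed CpG, with no level, coverage or value per animal, so depth is unknown and no SD can be given. Differences were read as KO minus WT, or KO SAMe minus KO placebo. The tables do not state this order, and all directions would turn round together under the other one. Only sites past the authors' limits are listed (an absolute difference of at least 20, largest q-value 0.0495), so a gene without a listed site was either not past these limits or not covered. No listed site lay in or near Mat1a itself, and the tables hold no level that could check the knockout. Of 36 marker genes of liver and other cell types, 4 (11.1%) had a listed site in KO placebo vs WT and 3 (8.33%) in KO SAMe vs WT, against 12.5% and 10.8% of all coding genes. They were the stellate cell markers Des and Reln and the cholangiocyte marker Sox9 in both, and the endothelial marker Stab2 in KO placebo alone, all lower in KO. Reln held 1 site in KO placebo and 6 in KO SAMe. None of the 6 hepatocyte markers had a site. The part of other liver cell types in the channel results was not tested, and group differences without levels cannot check the tissue.

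Voltage-gated channels open a selective pore when the membrane potential changes. Calcium and sodium channels have a large pore subunit joined by smaller auxiliary subunits, whereas potassium channels are assembled from several separate pore subunits. Nerve and muscle use them for action potentials. Hepatocytes do not fire action potentials, and there potassium channels are known for setting the resting potential and for volume control, while ENaC is known from sodium-absorbing epithelia such as kidney tubule, lung and colon.

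The start regions of 4 channel genes are shown first: the 3 genes whose listed sites came closest to an annotated start (Scn8a, Kcnj10 and Kcnip1) and Kcna6, the channel gene with a higher site in KO. Each runs 5′ to 3′ on the gene's strand from 250 bases before to 50 bases after the start (RefSeq, GRCm38.p6, whose chromosome positions equal those of mm10). Capitals mark CCGG and TCGA, the recognition sequences of MspI and TaqαI. Both read the same on either strand and cannot overlap each other.
Scn8a, chr15:100936021-100936320, plus strand: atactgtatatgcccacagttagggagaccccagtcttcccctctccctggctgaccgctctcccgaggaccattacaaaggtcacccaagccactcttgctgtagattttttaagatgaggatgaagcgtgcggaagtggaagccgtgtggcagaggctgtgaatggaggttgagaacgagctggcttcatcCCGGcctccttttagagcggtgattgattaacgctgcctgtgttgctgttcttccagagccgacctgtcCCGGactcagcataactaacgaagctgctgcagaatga
Kcnj10, chr1:172340960-172341259, plus strand: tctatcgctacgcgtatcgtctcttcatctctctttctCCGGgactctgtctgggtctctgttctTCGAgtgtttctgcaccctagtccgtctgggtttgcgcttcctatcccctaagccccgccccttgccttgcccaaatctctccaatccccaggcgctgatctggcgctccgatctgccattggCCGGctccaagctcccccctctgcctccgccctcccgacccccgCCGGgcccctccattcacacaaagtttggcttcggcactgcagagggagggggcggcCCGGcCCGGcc
Kcnip1, chr11:33993144-33993443, minus strand: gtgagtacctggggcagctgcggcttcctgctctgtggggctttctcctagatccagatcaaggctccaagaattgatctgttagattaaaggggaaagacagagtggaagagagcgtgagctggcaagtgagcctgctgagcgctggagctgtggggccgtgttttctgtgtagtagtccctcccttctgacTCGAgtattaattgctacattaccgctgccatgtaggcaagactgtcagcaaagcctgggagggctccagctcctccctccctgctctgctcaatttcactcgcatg
Kcna6, chr6:126740625-126740924, minus strand: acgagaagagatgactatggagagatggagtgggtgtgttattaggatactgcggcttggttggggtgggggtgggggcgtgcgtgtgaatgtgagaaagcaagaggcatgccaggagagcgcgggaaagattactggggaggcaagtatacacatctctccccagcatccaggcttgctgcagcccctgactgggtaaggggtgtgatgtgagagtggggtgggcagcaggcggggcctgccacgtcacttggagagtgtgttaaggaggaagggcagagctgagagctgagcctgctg

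These windows held 12 CG dinucleotides in Scn8a, 21 in Kcnj10, 7 in Kcnip1 and 8 in Kcna6. Kcnj10 carried 5 CCGG and 1 TCGA, Scn8a carried 2 CCGG, Kcnip1 carried 1 TCGA, and Kcna6 carried neither. The nearest listed sites lay downstream of all of them, at 173 bases from the Scn8a start, 321 from that of Kcnj10, 387 from that of Kcnip1 and 1362 from that of Kcna6. The Scn8a start shown is an internal one. Its nearest site lay 66581 bases inside the gene from the low-coordinate end, where this plus-strand gene begins. Of the 137 channel genes, 101 had a start in the RefSeq promoter table, with 137 windows among them. At least 1 CCGG or TCGA was present in 92 of these windows (67.2%), against 68.6% of 21263 windows of all coding genes with a start in the table. None of the channel windows held a listed site in any comparison, where 0.179% of all windows did in KO placebo vs WT and 0.141% in KO SAMe vs WT, so the count of 0 is close to this background.

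In KO placebo liver, methylation was lower than in WT at almost every listed site of the channel genes. A listed site lay in or near 27 of the 137 genes (19.7%), against 12.5% of all coding genes. Of their 61 sites, 60 were lower and 1 was higher in KO placebo. This direction was general, because 6678 of all 6721 listed sites were lower. The median of the channel sites was −25.5 percentage points in the authors' deposited table, against −25.9 over every listed site. The sites spanned −46.6 to 22.9 in the authors' deposited table, and 17 of them (27.9%) reached an absolute difference of 30, against 30.9% of every listed site.

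In KO SAMe liver, 21 of the 137 genes (15.3%) had a listed site, against 10.8% of all coding genes. All 44 sites were lower in KO SAMe than in WT, as were 5330 of all 5383 listed sites. Their median was −26.9 percentage points in the authors' deposited table, against −26.6 over every listed site. None of the channel genes had a listed site in KO SAMe vs KO placebo, the methylKit comparison in which 0.658% of all coding genes had one. Unlisted sites have no p-value in the tables, so the number at an unadjusted p under the usual threshold cannot be given. Both WT comparisons use the same WT animals. In all, 29 channel genes had a listed site in at least 1 WT comparison and 108 had none. Of all 21887 coding genes, 2745 had one in KO placebo vs WT and 2363 in KO SAMe vs WT, with 1861 in both.

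**Figure D1:**
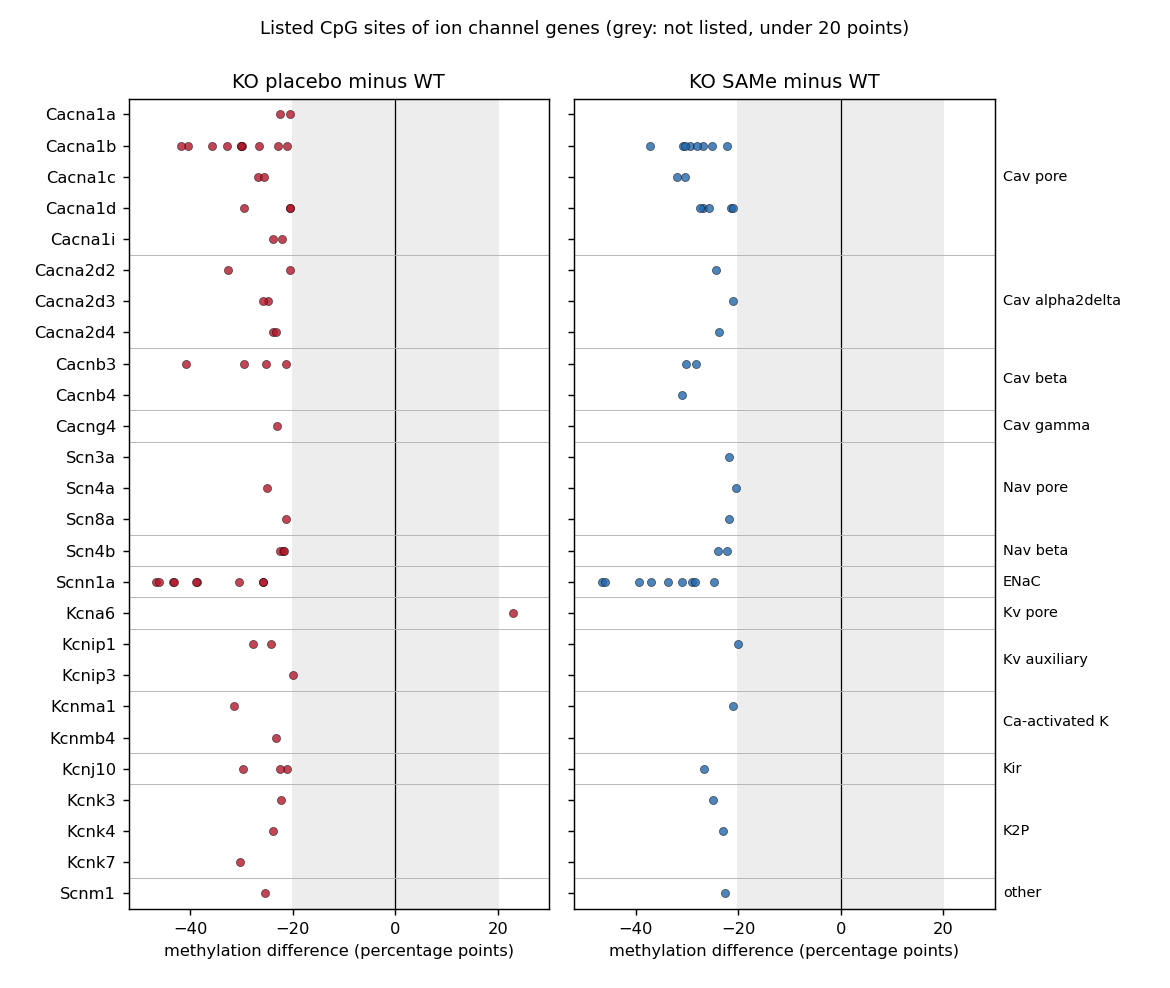
Each point is 1 listed CpG site of a channel gene, with KO placebo minus WT on the left and KO SAMe minus WT on the right (horizontal axis, percentage points) and genes grouped by channel class from top to bottom, without the genes that are not reported singly. Nearly all points lie between −46.6 and −20.01, and the single point to the right of 0 is Kcna6 in KO placebo.

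Channel genes are long, with a median of 42.5 kb against 17.2 kb over all coding genes, and long genes more often held a listed site. Among genes over 100 kb, 11 of 42 channel genes (26.2%) had a site in KO placebo vs WT, against 27.4% of all coding genes of that length. In the range from 20 to 100 kb the counts were 10 of 52 channel genes (19.2%) against 14.8%, and under 20 kb 6 of 43 (14%) against 8.03%. In KO SAMe vs WT the same classes gave 11 of 42 (26.2%) against 22.3%, 5 of 52 (9.62%) against 12.9%, and 5 of 43 (11.6%) against 7.12%. The channel genes thus lay above the coding-gene share in 4 of these 6 pairs and below it in 2. Per unit of gene span they held fewer sites, 3.54 per Mb against 4.85 in KO placebo vs WT and 2.55 against 4.03 in KO SAMe vs WT. These differences from the background were not tested.

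**Figure D2:**
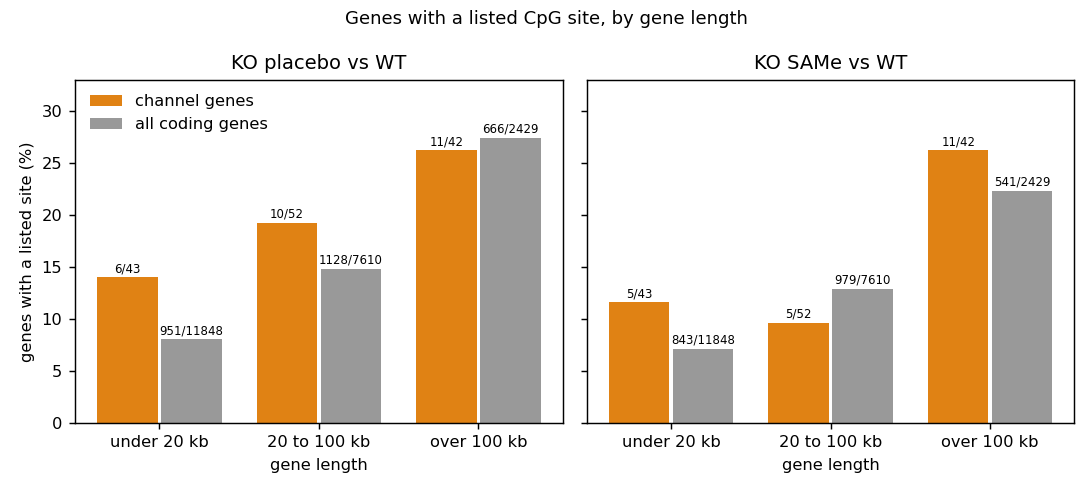
Bars give the percentage of genes with a listed CpG site (vertical axis) in 3 classes of gene length, for channel genes (orange) and all coding genes (grey), with the counts above each bar. The orange bar is above the grey one in the shortest class of both comparisons, 14% against 8.03% in KO placebo vs WT and 11.6% against 7.12% in KO SAMe vs WT.

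The counts were also read by channel family, a grouping made after the values were seen. Calcium channel genes had a site in 10 of 26 (38.5%) in KO placebo vs WT and 8 of 26 (30.8%) in KO SAMe vs WT. Sodium channel pore and beta subunit genes had 4 of 14 (28.6%) and 5 of 14 (35.7%), and potassium channel genes 11 of 93 (11.8%) and 6 of 93 (6.45%). The shares over all coding genes were 12.5% and 10.8%. Calcium channel genes are longer, with a median of 104 kb against 32.5 kb for potassium channel genes. Among genes over 100 kb, 8 of 13 calcium channel genes and 2 of 22 potassium channel genes had a site in KO placebo vs WT, with 7 of 13 and 2 of 22 in KO SAMe vs WT. The shares over all coding genes of that length were 27.4% and 22.3%. From 20 to 100 kb the order was reversed in KO placebo vs WT, with 1 of 10 calcium and 7 of 35 potassium channel genes. In KO SAMe vs WT these were 0 of 10 and 3 of 35, and all coding genes gave 14.8% and 12.9%. Under 20 kb, calcium channel genes had 1 of 3 in both comparisons, and potassium channel genes 2 of 36 and 1 of 36. All coding genes of that length gave 8.03% and 7.12%. Sodium channel genes had 2 of 3 under 20 kb and 1 of 4 from 20 to 100 kb in both comparisons. Over 100 kb they had 1 of 7 in KO placebo vs WT and 2 of 7 in KO SAMe vs WT. Differences between the families were not tested. The voltage-gated classes had a site in 19 of 92 genes (20.7%) and the other classes in 8 of 45 (17.8%) in KO placebo vs WT. In KO SAMe vs WT these were 15 of 92 (16.3%) and 6 of 45 (13.3%).

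Scnn1a, the alpha subunit of ENaC, had the largest differences of the set, although it is not a voltage-gated channel. It held 9 sites, all inside the gene (chr6:125314271-125344943), and the same 9 were listed in both WT comparisons, with means of −37.6 percentage points in KO placebo and −35.1 in KO SAMe in the authors' deposited table. A first group of 3 neighbouring positions held the 2 largest values in each comparison and stood at −43.4, −46.6 and −46.0 in KO placebo and −37.0, −46.6 and −46.1 in KO SAMe at 125321385, 125321402 and 125321409 in the authors' deposited table, all with q-values listed as 0. A second group lay near the other end of the gene. It spanned 134 bases from 125344043 to 125344176 and stood at −38.6, −38.9 and −43.1 in KO placebo, and at −31.0, −33.7 and −39.4 in KO SAMe, in the authors' deposited table. The 3 sites between these groups were smaller, from −30.5 to −25.8 in KO placebo and from −29.0 to −24.8 in KO SAMe in the authors' deposited table. The other ENaC subunit genes, Scnn1b and Scnn1g, had no listed site.

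Cacna1b, the pore of N-type calcium channels, which trigger transmitter release at nerve endings, held the densest run. In KO placebo 10 sites within 188 bases (chr2:24679245-24679432) were lower, with a mean of −31.1 and a range of −41.8 to −21.0 percentage points in the authors' deposited table. In KO SAMe 8 of these were listed, with a mean of −28.7 and a range of −37.2 to −22.1 in the authors' deposited table. The run lay well inside the gene (chr2:24603860-24763200), 83720 to 83907 bases downstream of its annotated start. Scnn1a and Cacna1b together held 19 of the 61 sites in KO placebo vs WT and 13 of the 17 that reached 30 percentage points. Without them the median of the remaining 42 sites was −23.5 in the authors' deposited table and 4 of them (9.52%) reached 30. In KO SAMe vs WT they held 17 of 44 sites, the median of the other 27 was −24.4 in the authors' deposited table, and 6 of those (22.2%) reached 30.

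**Figure D3:**
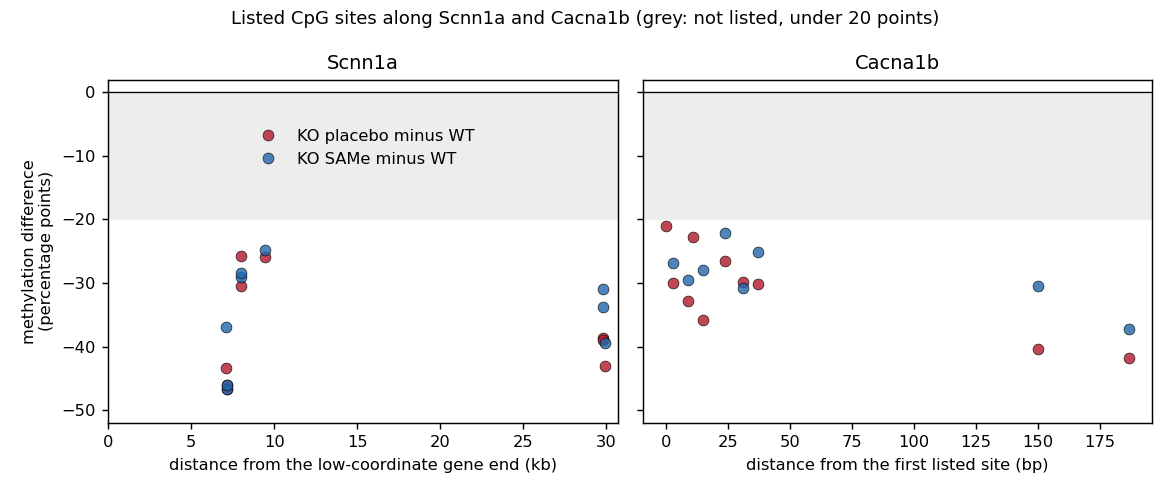
Points are listed CpG sites of Scnn1a by distance from the gene's low-coordinate end (left, kb) and of Cacna1b by distance from its first listed site (right, bp), with the methylation difference from WT in percentage points on the vertical axis (red KO placebo, blue KO SAMe). Scnn1a shows its largest losses, near −46.6, in the first group of sites, and the Cacna1b sites lie between −41.8 and −21.0.

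Among the other calcium channel pores, Cacna1c, the L-type pore of heart and smooth muscle, had 2 sites 240 and 255 bases inside one end of the gene. They stood at −25.6 and −26.7 percentage points in KO placebo and at −30.5 and −31.9 in KO SAMe in the authors' deposited table, and also fell within the decapping gene Dcp1b. Cacna1d, another L-type pore, had 3 sites in KO placebo (−29.5 to −20.5) and 5 in KO SAMe (−27.5 to −21.1) in the authors' deposited table, of which 2 positions were the same. Its sites at 30042218 and 30042267 lay within 2 kb of Chdh, the choline dehydrogenase gene, as well. The P/Q-type pore Cacna1a (−20.5 and −22.4) and the T-type pore Cacna1i (−23.9 and −22.1) each had 2 sites in KO placebo and none in KO SAMe in the authors' deposited table. No site was listed for the 5 other pore genes, Cacna1e, Cacna1f, Cacna1g, Cacna1h and Cacna1s.

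The auxiliary subunits of calcium channels had smaller numbers of sites. Among them, the alpha2delta and beta subunits control how much of the pore reaches the surface. Of the 4 alpha2delta genes, Cacna2d2, Cacna2d3 and Cacna2d4 had sites in both WT comparisons, from −32.6 to −20.5 percentage points in KO placebo and from −24.4 to −21.1 in KO SAMe in the authors' deposited table. Those of Cacna2d3 and Cacna2d4 were also assigned to Lrtm1 and Lrtm2. The beta subunit gene Cacnb3 had 4 sites in KO placebo, the largest at −40.9 (position 98645681 on chromosome 15, q = 4.2e-11), and the same position stood at −28.2 in KO SAMe (q = 6.96e-07) in the authors' deposited table. This site and its neighbour at 98645647 lay beyond the gene's end, 1145 and 1111 bases away, and inside the RNA helicase gene Ddx23. Cacnb4 had 1 site, which the authors' deposited table gave as −30.9 in KO SAMe. Of 8 gamma subunit genes, Cacng4 had 1 site, at −23.0 in KO placebo in the authors' deposited table.

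The voltage-gated sodium channel genes showed losses close to the authors' limit. Scn4a, the pore of skeletal muscle, stood at −25.0 percentage points in KO placebo and −20.4 in KO SAMe at 1 position 50 bases inside the gene's high-coordinate end in the authors' deposited table. Scn8a, a pore of neurons, had a site at −21.2 in KO placebo and another at −21.8 in KO SAMe, and the authors' deposited table gave 1 site of Scn3a, −21.8 in KO SAMe. Of the 4 beta subunit genes, Scn4b had 3 sites in KO placebo (−22.4 to −21.7) and 2 in KO SAMe (−23.9 and −22.1) in the authors' deposited table, none of them in its flanks. Scnm1 had 1 site, outside the gene and within 2 kb of the tropomodulin gene Tmod4, at −25.5 in KO placebo and −22.6 in KO SAMe in the authors' deposited table.

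Kcna6, a pore of the Shaker type, held the higher site of the set. It gained 22.9 percentage points in KO placebo (position 126739312 on chromosome 6, q = 1.09e-14) in the authors' deposited table and had no listed site in KO SAMe. Of the 39 voltage-gated potassium pore genes, 3 had a site in KO placebo vs WT and 1 in KO SAMe vs WT. Of 13 auxiliary genes, Kcnip1 and Kcnip3, whose proteins bind pores of the Kv4 family, had sites. Those of Kcnip1 stood at −24.3 and −27.8 in KO placebo and at −20.1 in KO SAMe, and that of Kcnip3 at −20.01 in KO placebo, in the authors' deposited table. The Kcnip1 sites near its start, 33992806 in KO placebo and 33992800 in KO SAMe, were 2 different cytosines.

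The potassium channels that are not voltage-gated in the strict sense gave single sites apart from Kcnj10. Kcnj10, an inward rectifier of glia and kidney tubule and the only one of 15 inward rectifier genes with a site, stood at −21.1, −22.5 and −29.7 percentage points in KO placebo and at −26.6 at the last of these positions in KO SAMe in the authors' deposited table. Kcnma1, the pore of the large-conductance calcium-activated channel, which also senses voltage, stood at −31.5 in KO placebo (q = 6.73e-09) and −21.0 in KO SAMe (q = 0.000279504), and its beta subunit gene Kcnmb4 at −23.2 in KO placebo, in the authors' deposited table. Among 14 two-pore-domain genes, which carry background potassium current, the mechanosensitive channel gene Kcnk4 stood at −23.8 in KO placebo and −23.0 in KO SAMe at 1 position also near Catsperz, in the authors' deposited table. The acid-sensitive channel gene Kcnk3 had −22.3 in KO placebo and −25.0 in KO SAMe at different positions, and Kcnk7 had −30.2 in KO placebo, in the authors' deposited table.

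Of the genes with sites, 3 lie on chromosome 14, which also carries Mat1a (chr14:41105012-41124428): Cacna1d at 10.6 Mb from it, Cacna2d3 at 11.4 Mb and Kcnma1 at 17.1 Mb. Their sites ranged from −31.5 to −20.5 percentage points in KO placebo and from −27.5 to −21.0 in KO SAMe, within the range of the channel sites elsewhere, in the authors' deposited table. The other channel genes on that chromosome, Kcnk5, Kcnk16 and Kcnrg, had none.

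In KO placebo vs WT 91.8% of the channel sites lay inside the gene and the rest within 2 kb of it, against 86.5% inside over all pairs of a site and a coding gene. In KO SAMe vs WT the share was 88.6% for channel sites, against 85.9% over all pairs. Over both WT comparisons there were 70 distinct sites, 65 of them inside the channel gene, and 14 sites of 8 genes were also in or within 2 kb of another coding gene. For the 48 sites of genes with an annotated start, 38 lay more than 5000 bases from it and 7, in 5 genes, within 1000. The gene table holds no exons, so exons, introns and UTRs were not told apart. The sites formed 44 runs when neighbours within 1000 bases were joined, and 31 runs held a single site.

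At 35 channel sites a difference was listed in both WT comparisons, which was 57.4% of the KO placebo sites and 79.5% of the KO SAMe sites, against 55.2% and 68.9% of every listed site. The comparisons share the WT animals and both select on the same limits. At the 26 sites listed in all 3 tables the differences added up to within 1e-08 percentage points, so the KO SAMe minus KO placebo difference at shared sites follows by subtraction. Over the 35 sites it had a median of 2.03 percentage points and ranged from −8.84 to 12.7, and 32 sites (91.4%) lay within 10, against 91.7% of every shared site. It was positive, nearer to WT in KO SAMe, at 22 sites (62.9%) and negative at 13. Over every shared site the median was −0.456 and 45.7% were positive. This contrast was not tested. Of the 22, 7 lay in Cacna1b and 7 in Scnn1a, and neighbouring sites of 1 gene are not independent. The largest values were 12.7 for Cacnb3 at 98645681, 10.6 for Kcnma1 and 10.1 for Cacna1b at 24679395, and the lowest were −8.84 for Cacnb3 at 98645647 and −6.37 for Cacna1d. The 2 Cacnb3 sites, within 35 bases of each other, differed in sign. None of the 35 was listed by the authors as different between KO SAMe and KO placebo.

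**Figure D4:**
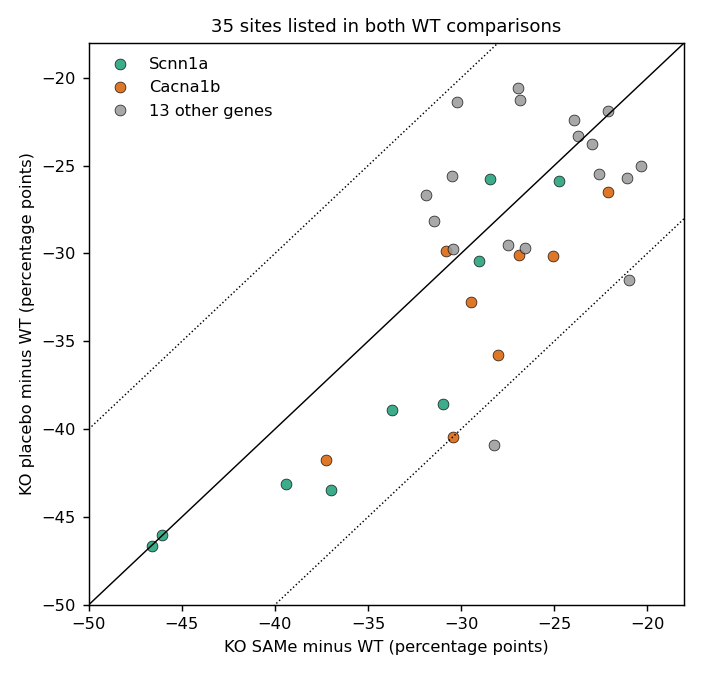
Each point is 1 of 35 sites listed in both WT comparisons, with the difference from WT in KO SAMe on the horizontal axis and in KO placebo on the vertical axis (percentage points). The solid line marks equal values and the dotted lines 10 points to either side, with 3 sites (Cacnb3, Kcnma1 and Cacna1b) just past the lower dotted line.

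At the gene level 19 channel genes had a site in both WT comparisons, 70.4% of the KO placebo genes and 90.5% of the KO SAMe genes. Over all coding genes 1861 had a site in both, 67.8% of the KO placebo genes and 78.8% of the KO SAMe genes. In 4 of the 19 channel genes (Cacna2d2, Kcnip1, Kcnk3 and Scn8a) the listed positions differed. Sites were listed in KO placebo alone for 8 genes, among them Cacna1a, Cacna1i, Cacng4, Kcna6, Kcnip3, Kcnk7 and Kcnmb4, and in KO SAMe alone for Cacnb4 and Scn3a. Being listed in 1 comparison does not show a difference between the KO groups, which was not tested at these sites beyond the authors' own table.

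A list of 45 other channels and channel partners was read in the same way. A site was listed for 12 genes (26.7%, against 12.5% of all coding genes) in KO placebo vs WT, 9 (20%, against 10.8%) in KO SAMe vs WT and 1 in KO SAMe vs KO placebo, and all differences from WT were lower. Nedd4l, the ubiquitin ligase that removes ENaC from the cell surface, had the largest, −56.4 percentage points in KO placebo and −55.2 in KO SAMe at position 65209568 of chromosome 18 in the authors' deposited table. Amigo1, a partner of potassium channels, had 3 sites in each comparison, from −34.2 to −27.4 in KO placebo and from −38.5 to −24.7 in KO SAMe, in the authors' deposited table. Fgf14, an intracellular partner of sodium channels, stood at −22.4 in KO placebo against WT and was 20.2 higher in KO SAMe than in KO placebo (q = 4.6e-06) in the authors' deposited table. The pacemaker channel gene Hcn2 stood at −31.5 in KO placebo and −25.3 in KO SAMe in the authors' deposited table.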

How the data were processed

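Reduced-representation bisulfite sequencing libraries were made from liver DNA after MspI and TaqαI digestion, per the labels' protocols, so CpGs far from a cut site are not seen. CASAVA 1.8.2, Trim Galore, Bismark, methylKit and the mm10 build are named per the submitters' processing notes, with no order or settings. The authors deposited 3 tables of group comparisons with a p-value and q-value per CpG and a signed methylation difference in percentage points. The kind of test behind them is not given in the sources used here, nor whether the spread between animals entered it.

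Sites were assigned to 21887 coding genes of the RefSeq table (GRCm38.p6) with Python 3.11.15 and pandas 2.3.3, an assignment tested on simulated positions. No test was computed, because no value per animal was used, and the main counts are set beside the same counts over all coding genes. Described genes were those with a higher site, with 3 or more sites in a table, among the 10 largest differences of a WT comparison or the largest of their channel class, and the remaining genes with a site are given as well. Ion families, the spans per Mb, promoter windows and the values without Scnn1a and Cacna1b were added after the values were seen. Some genes are counted but not reported singly here. The channel genes and lists were chosen with earlier results of these data known.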

Additional observations from a re-analysis of the deposited data

How the results depend on the processing

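Counts were recomputed with sites inside genes only, within 10 kb, with an absolute difference of at least 30, with q-values of at most 0.01, without chromosome 14, for voltage-gated classes only, and without sites shared with another coding gene. Leaving out Scnn1a and Cacna1b was chosen after seeing the data. Of the recomputed values 87 stayed within 1.5 times the main count or 1 SD over sites of the main median, and 17 did not. Some of the 87 could not move. The q-values of the channel sites were at most 0.001427961, so the limit of 0.01 removed none. Counts of 0 in KO SAMe vs KO placebo could not change under a narrower setting. No direction turned round, but 60 of 61 and all 44 sites were lower, so subsets of them could hardly do so. With differences of at least 30, genes with a site fell to 6 in KO placebo vs WT and 6 in KO SAMe vs WT, their sites to 17 and 15, and sites and genes in both to 8 and 3. Within 10 kb, 54 sites were in both WT comparisons and 1 gene with 1 site appeared in KO SAMe vs KO placebo. Voltage-gated classes alone left 22 sites in both, and leaving out shared sites left 12 genes in both. Without Scnn1a and Cacna1b, 27 sites were left in KO SAMe vs WT and 18 in both WT comparisons. No paired analysis was possible because the animal codes pair no samples and no value per animal was used, and for the same reason no animal could be left out. Depth is unknown.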

Other observations

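Channel genes just beyond the 2 kb distance also had lower sites in KO. The farthest site taken by the rule was that of Cacnb3, 1145 bases outside the gene, at −40.9 percentage points in KO placebo in the authors' deposited table. Between 2 and 10 kb, 27 sites of 10 channel genes were listed in KO placebo vs WT and 20 sites of 6 genes in KO SAMe vs WT. All were lower, as were 6678 of 6721 and 5330 of 5383 of every listed site. The share of all coding genes with a site at this distance was not counted, so these counts have no background beside them. The largest were 3 sites 3934 to 3982 bases from Kcnk4, from −47.4 to −39.7 in KO placebo and from −55.0 to −51.7 in KO SAMe, and 2 sites beyond Scn8a, −50.8 and −52.5 in KO placebo and −49.9 and −49.0 in KO SAMe, in the authors' deposited table. Kcnn1, a small-conductance calcium-activated potassium channel gene, had 6 sites 3063 to 3110 bases from its end in KO placebo, from −32.8 to −21.4, and 5 of them in KO SAMe, from −28.2 to −22.3, in the authors' deposited table. One site 3729 bases from Scn4a was 21.8 higher in KO SAMe than in KO placebo (q = 0.00819599) in the authors' deposited table. Which gene, if any, these sites belong to was not tested.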
